A study of Mus musculus with 42 samples.

Results

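The 9 genes described here make, break down, bind or answer to retinoic acid, and their RNA was followed in the left and right heart fields of normal mouse embryos and of embryos that lack directional flow at the node. They were 9 of the 56953 genes counted and were taken by their Ensembl identifiers, as matched to GENCODE symbols: *Aldh1a2*, *Rdh10*, *Dhrs3*, *Cyp26a1*, *Cyp26b1*, *Cyp26c1*, *Crabp1*, *Crabp2* and *Rarb*. The study searched for further left-right differences in gene expression in embryos without flow at the node, and compared classes of embryos by their laterality. The heart field of 21 embryos at stage E8.5i, by which the direction of looping can be scored, was cut at the midline, and RNA of each side was sequenced, giving 42 libraries with a paired left and right side for every embryo. Head, back, heart tube and the trunk below the second somite had been removed before the sides were separated.

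The 5 wild-type embryos were Ccdc40+/+ and had hearts looping rightward, which is the usual direction. Another 11 embryos, called rightward mutants here, were Ccdc40lnks/lnks with rightward looping, and 5 embryos, called inverted mutants, were Ccdc40lnks/lnks with inverted looping. CCDC40 sets the spacing of the motor arms along motile cilia, and *lnks* is a point mutation of the gene that is carried in all cells, in a line whose background the study's methods write as C56Bl6J. All mutants share this allele, so the 2 mutant groups differ in looping outcome, which was scored on the same embryos, and not in any treatment. Looping direction therefore describes the embryos and was not imposed on them. The study divides the rightward mutants further into laterality classes, which it set from asymmetry in these same libraries. The labels do not give that division, so each mean and log2 fold change of the rightward mutants pools embryos of more than 1 such class. Males were 4 of 5 wild types, 6 of 11 rightward mutants and 3 of 5 inverted mutants.

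Retinoic acid is a diffusible derivative of vitamin A that binds nuclear receptors on DNA and changes the transcription of the genes beside them. In the early embryo it is made in the trunk mesoderm, chiefly by the dehydrogenase ALDH1A2, and is destroyed by CYP26 enzymes in neighbouring tissues, so that its sources and its sinks set where it acts. In the heart it is known for setting the posterior limit of the second heart field and for the posterior progenitors that form the venous pole, and in the trunk it buffers the somites against left-right differences.

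*Ccdc40* itself had 20.6 ± 3.52 CPM (SD over 10 libraries; CPM are counts scaled to a common library size) in wild-type libraries, with a range of 15.2 to 26.5. It lay between 8.83 and 14.6 in the 22 libraries of rightward mutants and between 9.99 and 14.8 in the 10 libraries of inverted mutants. No mutant library reached the wild-type range. Libraries held 36073684 to 62970327 counts in genes (median 43458644). Every member was read in every library, with at least 83 counts.

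In their heart field genes 3 libraries stood apart, and they carry weight in some results below. They were both sides of rightward mutant 2_2 and the right side of wild type 10_1. *Tbx5*, a posterior heart field gene, was at 5.78 and 0.352 CPM in the left and right sides of 2_2 and at 26.4 CPM in the right side of 10_1, whereas the other 39 libraries lay between 39.5 and 111 CPM. *Pax6*, a neural tube gene, was at 113 CPM in the right side of 10_1 and between 3.23 and 53.1 CPM in those 39 libraries. *Isl1*, a heart field marker, was at 139 and 100.3 CPM in 2_2 and at 54.8 CPM in 10_1 right, against 51.8 to 132 CPM. These genes were chosen after their values were seen.

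Both *Cyp26a1* and *Rarb* are known as direct targets of the retinoic acid receptors, which bind repeated hexamers, and their DNA is shown because their RNA is widely used as a readout of the signal. The 1000 bases around every annotated protein-coding start of each member (500 before and 500 after, GENCODE vM39 on GRCm39) were searched on both strands. The hexamer was AGGTCA, or the form AGTTCA, or else the form GGGTCA, or finally the form GGTTCA. Any pair of these was sought as a direct repeat with 1, 2 or 5 bases between them. A shorter window had been searched first and was widened after it missed *Rarb*. The matches are printed in capitals on the gene's strand, with 5 bases on each side.
Cyp26a1: aaagaTGAACTttgggTGAACTaattt
Rarb: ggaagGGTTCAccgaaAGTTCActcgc

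The *Cyp26a1* repeat lay at chr19:37686224-37686240, 17 to 1 bases before the start at 37686241, and reads as a direct repeat on the strand opposite to the gene. The *Rarb* repeat lay at chr14:5894234-5894250, 298 to 314 bases after the start at 5893936, on the gene's own strand. Both had 5 bases between hexamers, a spacing that was matched in 0.245% of 21593 promoters of the same length, against 0.472% for a spacing of 2 and 0.681% for a spacing of 1. Those promoters were taken at canonical starts alone, 1 per gene, whereas members were searched at all their starts. Both matches lay at canonical starts. No match was found for the other 7 members, which says only that these letters are not in those windows.

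Set per kilobase of exon, on the mean of both sides, the binding protein genes were the most abundant of the 9 and *Cyp26b1* the least. The medians over 21 embryos were 178 CPM per kb for *Crabp2*, 142 for *Crabp1*, 22.0 for *Cyp26a1*, 15.8 for *Aldh1a2*, 12.6 for *Rdh10*, 11.1 for *Dhrs3*, 7.11 for *Cyp26c1*, 5.12 for *Rarb* and 2.24 for *Cyp26b1*. Only some neighbours in this order were separated beyond their spread. *Crabp1* was above *Cyp26a1* in 21 of 21 embryos and *Rarb* above *Cyp26b1* in 20 of 21. *Crabp2* was above *Crabp1* in 14 of 21 embryos, with a mean log2 difference of 0.20 ± 0.56 (SD), and *Cyp26c1* was above *Rarb* in 12 of 21, with 0.16 ± 1.13. The remaining neighbours kept their order in 15 to 17 embryos, and their mean log2 difference was under 1 SD of that difference. *Rarb* shares its locus with *Top2b* on the opposite strand (83.6 CPM), and the strand setting of the counting is not given in the sources used here, so the level of *Rarb* is uncertain. *Cyp26c1* overlaps a lower lncRNA, Gm32342 (3.48 CPM), in the same way.

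**Figure D1:**
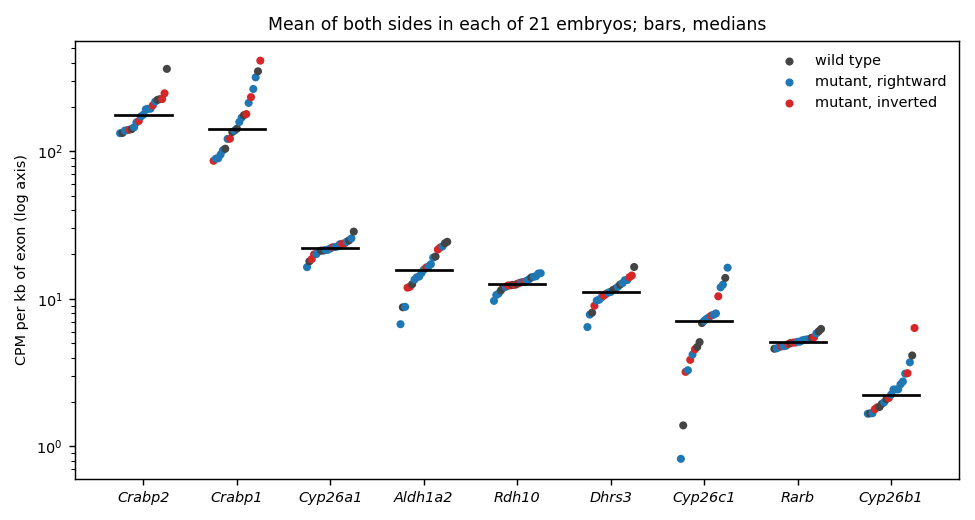
Level of each member in CPM per kb of exon on a log axis, 1 point per embryo (mean of its left and right sides), coloured by group, with bars at the median. *Crabp2* and *Crabp1* lie highest, and *Cyp26c1* has the widest spread, 19.8-fold from the lowest to the highest embryo.

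The members also differed in how far they varied between embryos. *Rarb* varied 1.36-fold and *Rdh10* 1.54-fold between the lowest and the highest of 21 embryos, whereas *Cyp26c1* varied 19.8-fold, from 3.27 CPM in rightward mutant 1_6 to 64.6 CPM in 2_2. *Crabp1* varied 4.77-fold, *Cyp26b1* 3.81-fold and *Aldh1a2* 3.62-fold. Without 10_1 and 2_2, which held the highest and the lowest *Aldh1a2*, that gene varied 2.71-fold, *Crabp2* 1.86-fold in place of 2.73-fold, and *Cyp26c1* still 16.8-fold.

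*Aldh1a2* (chr9:71122630-71203527, forward strand of GRCm39) encodes the enzyme that makes retinoic acid from retinaldehyde, and in wild types its RNA was higher on the right in 4 of 5 embryos. In the order 7_1, 8_1, 10_1, 17_7, 22_4, the left sides had 100.1, 71.8, 71.6, 77.2 and 28.2 CPM and the right sides 119.9, 107, 154, 38.8 and 52.8 CPM. The sides overlapped, and embryo 17_7 alone was higher on the left. The right over left log2 fold change was 0.38 (SE 0.28) with an adjusted p of 1.0 by edgeR's quasi-likelihood test, where p is adjusted over all genes tested and a gene counts as called under 0.05. It was 0.70 (SE 0.14) without 17_7, still at an adjusted p of 1.0. In bulk libraries such as these, a change in RNA per cell and a change in the number of cells that hold it cannot be told apart. In inverted mutants *Aldh1a2* lay lower on the right in 4 of 5 embryos. In the order 2_7, 4_6, 10_3, 18_2, 32_2, the left sides had 117, 54.4, 61.5, 121 and 83.8 CPM and the right sides 88.7, 55.7, 49.9, 78.9 and 67.0 CPM. The log2 fold change was -0.31 (SE 0.08), with an adjusted p of 0.109 in the same test. DESeq2 called it, with an adjusted p of 4.19e-04, as did the quasi-likelihood test on all genes without a filter on low counts (0.0265). Rightward mutants ran from 35.8 CPM through a median of 62.3 to 108 on the left and from 25.5 through 70.9 to 101 on the right, with a log2 fold change of 0.04 (SE 0.11).

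The *Aldh1a2* values of wild types and inverted mutants thus had opposite signs, but the difference between them did not pass the test. The change of asymmetry was -0.71 on the log2 scale (SE 0.30), with an unadjusted p of 0.0275 and an adjusted p of 0.299. Among the alternatives run it passed only in the fit that left out wild type 17_7 (-1.03, adjusted p 0.0488). An exact permutation test over the 10 embryos gave p = 0.127.

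*Rdh10* (chr1:16175555-16203958, forward strand) encodes the enzyme that oxidises retinol to retinaldehyde, and *Dhrs3* (chr4:144619245-144654779, forward strand) the enzyme that runs that step backwards. *Rdh10* had 60.3 ± 9.12 CPM (SD, n = 5) on the left and 54.5 ± 12.8 on the right in wild types, 59.3 ± 11.6 and 58.8 ± 12.6 in rightward mutants (n = 11), and 60.8 ± 11.2 and 55.0 ± 8.68 in inverted mutants (n = 5). The sides of 1 embryo nevertheless differed by up to 1.91-fold, in 10_1, and over the 21 embryos left and right had a correlation of -0.35. The SD of the embryo means was 0.16 on the log2 scale and that of the log2 ratios 0.46. These 2 SDs are not like measures, since a mean of 2 sides narrows the spread that a ratio widens. Such ratios went either way, with the right higher in 10 of 21 embryos.

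*Dhrs3* had 41.3 ± 14.4 CPM (SD, n = 5) on the left and 36.8 ± 5.50 on the right in wild types, and 35.2 ± 9.55 and 40.9 ± 9.27 in inverted mutants. Rightward mutants had 34.4 ± 6.25 and 35.1 ± 8.77 CPM (n = 11). Neither gene passed the test in any of the 12 comparisons made.

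The 3 CYP26 enzymes hydroxylate retinoic acid and so mark it for removal. *Cyp26a1* (chr19:37686241-37689984, forward strand), which retinoic acid itself induces and whose upstream repeat is printed above, held the narrowest range of the 3. It had 47.4 ± 8.76 CPM (SD, n = 5) on the left and 43.2 ± 9.58 on the right in wild types, 43.3 ± 6.16 and 43.8 ± 4.55 in rightward mutants (n = 11), and 40.8 ± 5.17 and 45.3 ± 6.48 in inverted mutants (n = 5). Right over left was -0.15 (SE 0.12) on the log2 scale in wild types and 0.16 (SE 0.10) in inverted mutants. That change of 0.30 (SE 0.14) had an unadjusted p of 0.0465 and an adjusted p of 0.361 by edgeR's quasi-likelihood test, and it was 0.17 (SE 0.13) without 10_1.

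*Cyp26b1* (chr6:84548396-84570890, reverse strand) ran between 7.67 and 38.4 CPM over all libraries. In inverted mutants embryo 10_3 had 38.4 CPM on the left and 33.9 on the right, and 32_2 had 25.9 on the left and 9.75 on the right, while the sides of the other 3 embryos lay between 8.83 and 12.6 CPM. In wild types embryo 17_7 was high on both sides (22.5 and 24.5 CPM), above the 7.67 to 13.1 CPM of the other 4. Rightward mutants ran from 9.29 CPM through a median of 14.3 to 27.4 on the left, the highest being embryo 17_1, and from 8.35 through 13.1 to 19.9 on the right. High *Cyp26b1* was thus seen in single embryos of all 3 groups, and right over left was -0.02 (SE 0.16) in wild types, -0.17 (SE 0.14) in rightward mutants and -0.14 (SE 0.24) in inverted mutants.

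*Cyp26c1* (chr19:37674029-37684073, forward strand), which lies 2167 bases upstream of *Cyp26a1* on chromosome 19 and acts in the head and hindbrain region of the embryo, differed more between embryos and between sides than its neighbour. In wild types, in the order 7_1, 8_1, 10_1, 17_7, 22_4, the left sides had 11.2, 15.2, 6.24, 17.9 and 91.4 CPM and the right sides 29.3, 22.3, 4.78, 36.5 and 18.8 CPM. Embryo 22_4 was alone above 20 CPM on the left, and 3 of 5 embryos were higher on the right. Inverted mutants, in the order 2_7, 4_6, 10_3, 18_2, 32_2, had 28.4, 17.8, 47.3, 13.6 and 14.6 CPM on the left and 32.8, 18.4, 35.4, 11.8 and 16.1 CPM on the right. Their sides ran together within each embryo, with log2 ratios between -0.42 and 0.21, against -2.28 to 1.39 in wild types.

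Rightward mutants ran from 4.46 CPM through a median of 36.1 to 63.8 on the left for *Cyp26c1* and from 2.08 through 22.1 to 90.1 on the right, and 7 of 11 were higher on the left. Their log2 fold change was -0.33 (SE 0.21) and, without 2_2, -0.49 (SE 0.18), with an adjusted p of 1.0 in both fits. In no comparison did a CYP26 gene pass the test.

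**Figure D2:**
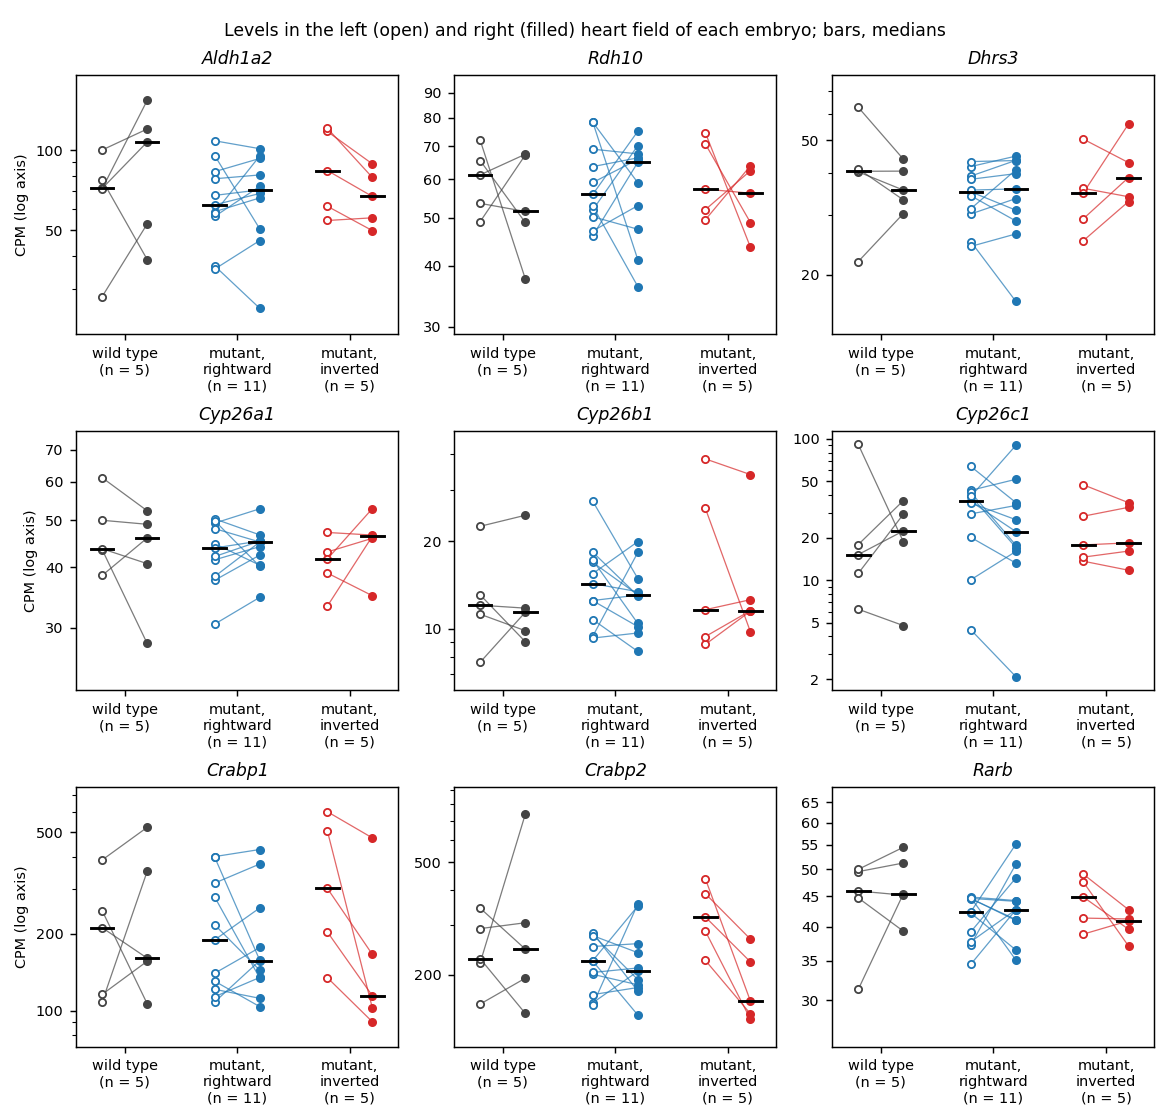
CPM of the 9 members on log axes, by group, with left sides as open and right sides as filled points. Each point is 1 library, a line joins the sides of 1 embryo, and bars mark the median. In inverted mutants the lines of *Crabp2* and *Crabp1* fall from left to right in 5 of 5 embryos.

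The cellular retinoic acid-binding proteins hold the ligand in the cytosol; CRABP2 carries it to the receptor in the nucleus, while CRABP1 is linked to its breakdown and marks hindbrain and neural crest cells. *Crabp2* (chr3:87855973-87860683, forward strand) was the only member to pass the test in any comparison. In inverted mutants its left sides had 225, 319.9, 387, 285 and 436 CPM in the order 2_7, 4_6, 10_3, 18_2, 32_2, and the right sides 146, 222, 267, 139.5 and 162 CPM. The left was higher in 5 of 5 embryos, although the 2 sets of values overlapped. Right over left was -0.82 (SE 0.13) on the log2 scale, with an adjusted p of 0.0193 by edgeR's quasi-likelihood test. Of 22960 genes tested in this comparison 2.04% were called, so the 1 called member of 9 stands beside a background of 468 genes, 395 of them higher on the right and 73 on the left.

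The call for *Crabp2* depended on 1 embryo and on the fit. Without 18_2 the value was -0.78 with an adjusted p of 0.0784, and over all embryos left out it ran from -0.90 to -0.67. The exact sign-flip test over the 5 embryos gave p = 0.0625, two-sided, which is the smallest that 5 embryos allow. The fit without the embryo as a block gave -0.81 (adjusted p 0.0779), a fit of all 42 libraries -0.83 (0.139) and the males alone -0.69 (0.116).

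In neither other group was *Crabp2* called. In wild types *Crabp2* had 344, 158, 221, 291 and 228 CPM on the left, in the order 7_1, 8_1, 10_1, 17_7, 22_4, and 247, 195, 737, 305 and 146 CPM on the right. Embryo 10_1, whose right side stood apart above, was the highest by far, and 3 of 5 embryos were higher on the right. Right over left was 0.17 (SE 0.31), and -0.19 (SE 0.15) without 10_1, so that this embryo set the sign. Rightward mutants ran from 157 CPM through a median of 223 to 281 on the left and from 144 through 206 to 356 on the right, with a log2 fold change of 0.01 (SE 0.14) and, without 2_2, of 0.01 (SE 0.16).

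The difference in the asymmetry of *Crabp2*, inverted less rightward mutants, was -0.84 on the log2 scale (SE 0.31), with an unadjusted p of 0.0125 and an adjusted p of 0.306. Inverted mutants less wild types gave -1.01 (SE 0.37), with an adjusted p of 0.218, and -0.64 (SE 0.30), with an adjusted p of 0.552, without 10_1. Exact permutation tests over embryos, not adjusted for their number, gave p = 0.00984 and, with 10_1 among the wild types, p = 0.0397. Of the 27 such tests over members and pairs of groups, 3 had p under 0.05, the third being *Crabp1* in inverted against rightward mutants (p = 0.0332). The side difference of the inverted mutants was therefore not shown to differ from that of the other groups by the fit across all genes.

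*Crabp1* (chr9:54671171-54680403, forward strand) went to the same side in the same embryos. In inverted mutants its left sides had 203, 301, 601, 135 and 506 CPM in the order 2_7, 4_6, 10_3, 18_2, 32_2, and the right sides 114, 166, 474, 90.4 and 102 CPM. The left was again higher in 5 of 5 embryos, with log2 ratios between -2.30 and -0.34, and embryo 10_3 was the highest on either side. The log2 fold change of -0.96 (SE 0.25) had an unadjusted p of 0.00428 and an adjusted p of 0.105. It was called by DESeq2 (adjusted p 0.0423), by the test without a filter on low counts (0.00418) and in the fit that left out 32_2, the embryo with the widest difference (-0.64, adjusted p 0.0354).

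Wild types had 211, 116, 108, 389 and 246 CPM of *Crabp1* on the left and 160.5, 156, 351, 522 and 106 CPM on the right, in the order 7_1, 8_1, 10_1, 17_7, 22_4, with 3 of 5 higher on the right. Their log2 fold change was 0.18 (SE 0.36), and -0.18 (SE 0.26) without 10_1. Rightward mutants ran from 108 CPM through 189 to 401 on the left and from 104 through 157 to 427 on the right, with -0.14 (SE 0.16). The difference in asymmetry was -0.83 (SE 0.38) for inverted less rightward mutants and -1.15 (SE 0.45) for inverted mutants less wild types, with adjusted p of 0.442 and 0.256.

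*Rarb* (chr14:5650540-6041094, forward strand) encodes a receptor whose gene is itself a target of the signal. Its downstream repeat is printed above. It had the narrowest range over embryo means of the 9, with 44.3 ± 7.61 CPM (SD, n = 5) on the left and 47.1 ± 5.90 on the right in wild types, 41.5 ± 3.72 and 43.8 ± 5.91 in rightward mutants (n = 11), and 44.3 ± 4.24 and 40.3 ± 2.12 in inverted mutants (n = 5). Its lowest value, 31.3 CPM, was the left side of wild type 22_4, the side with the highest *Cyp26c1*. Right over left was 0.09 (SE 0.10), 0.07 (SE 0.07) and -0.12 (SE 0.07) in the 3 groups. On the right, the log2 difference in *Rarb* level of inverted mutants from wild types was -0.25 (SE 0.10), with an unadjusted p of 0.0221 and an adjusted p of 0.803.

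**Figure D3:**
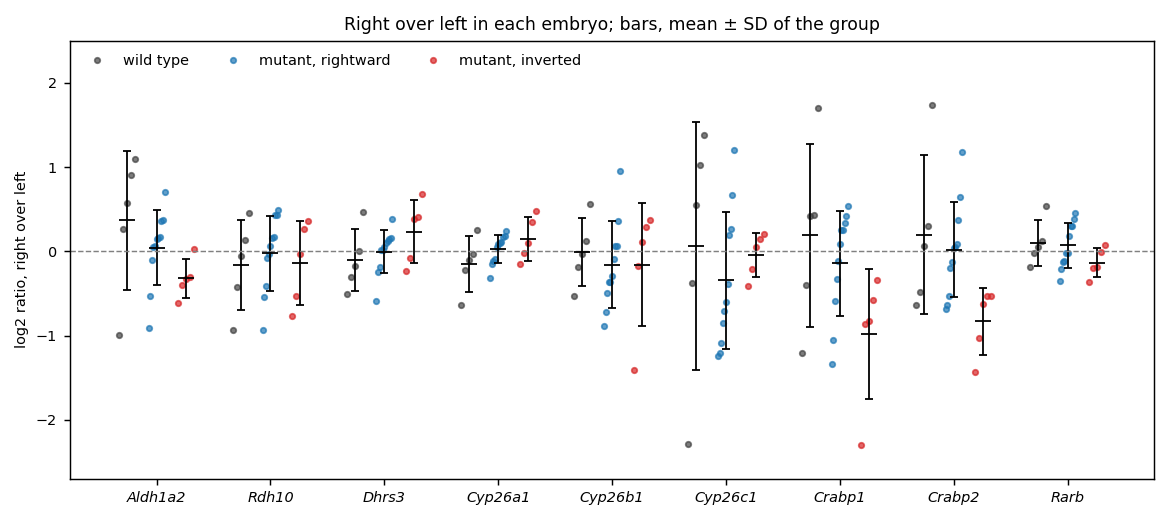
Log2 ratio right over left of each member, 1 point per embryo, with the mean and SD of each group. Inverted mutants lie below 0 in 5 of 5 embryos for *Crabp2* and *Crabp1*, and the wild type point far above 0 in both is 10_1.

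Set out by comparison, the counts were as follows. In wild types 0 of 9 members were called for side, against 0.0% of 23182 genes, where 639 genes had an unadjusted p under 0.05 and DESeq2 called 20 genes and no member. In rightward mutants 0 of 9 were called, against 0.0263% of 22795 genes. For the change of asymmetry, 0 of 9 were called between inverted and rightward mutants, against 0.311% of 26335 genes, 0 of 9 between inverted mutants and wild types, against 0.513%, and 0 of 9 between rightward mutants and wild types, against 0.0%, where 800 genes had an unadjusted p under 0.05 and DESeq2 called 0. With few genes called in any of these, a count of 0 members sits at the background.

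The level within 1 side was compared between groups with sex in the model. On the left 0 of 9 members were called between inverted and rightward mutants (0.0121% of 24838 genes), between inverted mutants and wild types (0.0282%) and between rightward mutants and wild types (0.0242%). On the right 0 of 9 were called between inverted and rightward mutants (0.00805% of 24859 genes), between inverted mutants and wild types (0.0%, with 1474 genes at an unadjusted p under 0.05 and 17 called by DESeq2) and between rightward mutants and wild types (0.0121%). DESeq2 called no member in any of these 6 comparisons. The lowest p belonged to *Crabp2*, which was 0.58 higher on the log2 scale (SE 0.17) in the left sides of inverted than of rightward mutants, with an unadjusted p of 0.00248 and an adjusted p of 0.426. Against wild types its level differed by 0.46 (SE 0.21) on the left and by -0.75 (SE 0.34) on the right, with adjusted p of 0.679 and 0.833. Without 10_1 the right value was -0.24 (SE 0.26) and the left 0.41 (SE 0.22).

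Relations between pairs of members were computed over the 21 embryos, and pairs with related roles included both close and loose ones. Each permutation p below comes from mixing the embryos of all 3 groups. It therefore does not separate relations within a group from differences between groups. The right over left log2 ratios of *Crabp1* and *Crabp2* correlated with Pearson's r = 0.86 and Spearman's rho = 0.87, each with a permutation p of 1e-05, the smallest that 100000 permutations can give. Adjusted over the 72 relations computed, p was 3.6e-04 and 7.2e-04. The r was 0.74 without the 2 embryos farthest from the median, 0.80 without 10_1 and 2_2 and 0.69 in the 11 rightward mutants alone, the other groups having 5 embryos each.

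The ratio of *Cyp26a1* went against that of *Crabp2*, with r = -0.75 (permutation p 1.5e-04, adjusted 0.00288), but rho was -0.48 (permutation p 0.0294, adjusted 0.138). Without the 2 farthest embryos r was -0.48, and in rightward mutants alone -0.64. The relation thus rests in part on those embryos.

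In level, *Aldh1a2* and *Dhrs3* ran together, with r = 0.85 (permutation p 1e-05, adjusted 3.6e-04) and rho = 0.76 (permutation p 1.2e-04, adjusted 0.00432). The r was 0.74 without the 2 farthest embryos, 0.77 without 10_1 and 2_2 and 0.93 in rightward mutants. *Aldh1a2* also ran with *Rarb* (r = 0.64, permutation p 0.00207, adjusted 0.0221; rho = 0.65, permutation p 0.00175, adjusted 0.0419; r = 0.56 without the 2 farthest and 0.59 in rightward mutants). *Dhrs3* went against *Cyp26c1*, with r = -0.63 (permutation p 0.00276, adjusted 0.0221) and rho = -0.61 (permutation p 0.00425, adjusted 0.0481), and -0.47 without the 2 farthest embryos. *Dhrs3* ran with *Rarb*, with r = 0.63 (permutation p 0.00256, adjusted 0.0221) and rho = 0.64 (permutation p 0.00233, adjusted 0.0419), and r was 0.51 without the 2 farthest embryos and 0.51 in rightward mutants.

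*Cyp26b1* ran with *Crabp1* in level, with r = 0.76 (permutation p 1.6e-04, adjusted 0.00288) but rho = 0.51 (permutation p 0.019, adjusted 0.114). For that pair r was 0.54 without the 2 farthest embryos and 0.66 in rightward mutants. Other pairs of related role were looser. *Aldh1a2* and *Rdh10*, which act in sequence, had r = 0.22 (permutation p 0.341, adjusted 0.511) and rho = 0.18 (permutation p 0.443, adjusted 0.614). *Rdh10* and *Dhrs3*, which act in opposite directions, had r = 0.14 (permutation p 0.545, adjusted 0.726) and rho = 0.16 (permutation p 0.473, adjusted 0.643). *Cyp26b1* had r = -0.07 with *Cyp26a1* (permutation p 0.745, adjusted 0.889; rho = -0.13, permutation p 0.57, adjusted 0.695). With *Cyp26c1* it had r = 0.22 (permutation p 0.336, adjusted 0.511; rho = 0.20, permutation p 0.375, adjusted 0.561).

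The neighbours *Cyp26a1* and *Cyp26c1* had r = 0.63 in level (permutation p 0.00227, adjusted 0.0221) and rho = 0.45 (permutation p 0.0426, adjusted 0.147), with 0.41 without the 2 farthest embryos and 0.66 in rightward mutants. The 2 genes whose repeats are printed above, *Cyp26a1* and *Rarb*, had r = -0.36 in level (permutation p 0.109, adjusted 0.271) and rho = -0.24 (permutation p 0.303, adjusted 0.527). For this pair r was -0.27 without the 2 farthest embryos and 0.04 in rightward mutants. Their right over left ratios had r = -0.50 (permutation p 0.019, adjusted 0.0721) and rho = -0.55 (permutation p 0.0112, adjusted 0.09), with r = -0.56 without the 2 farthest embryos and -0.53 in rightward mutants.

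**Figure D4:**
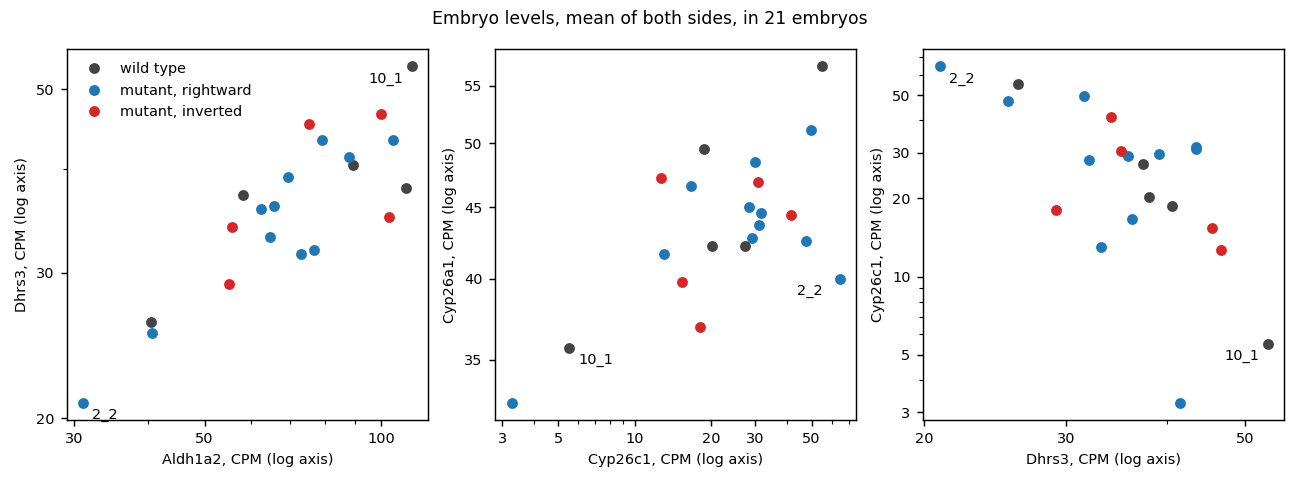
Levels of pairs of members in CPM on log axes, 1 point per embryo (mean of both sides), coloured by group: *Dhrs3* against *Aldh1a2*, *Cyp26a1* against *Cyp26c1*, and *Cyp26c1* against *Dhrs3*. The points of 10_1 and 2_2 are named, and they lie at the top and the bottom of the rising *Aldh1a2* and *Dhrs3* pair.

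Several members moved with markers of neighbouring tissues. In inverted mutants, 7 of 7 neural tube markers had a negative right over left value (median -1.45 on the log2 scale, against -0.01 over all genes), and 3 were called higher on the left: *Pax6* (-2.02, SE 0.36, adjusted p 0.0309), *Nkx6-1* (-1.45, SE 0.28, adjusted p 0.0424) and *Olig2* (-1.77, SE 0.35, adjusted p 0.0441). Their summed level ran from 81.8 to 140.2 CPM on the left (median 100.1) and from 41.1 to 87.2 CPM on the right (median 51.2). Wild types had 40.8 to 128 CPM on the left and 45.1 to 202 on the right, and rightward mutants 35.3 to 94.3 and 43.5 to 112. Of the defining genes, *Sox1* was at 0 in 6 of 42 libraries and *Olig2* in 12.

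Heart tube muscle markers went the other way in inverted mutants, with 6 of 8 called higher on the right (median 1.07), although the heart tube had been removed. They summed to 1214 to 2341 CPM on the left and 2289 to 4855 CPM on the right. Posterior second heart field markers had 3 of 6 called on the right, and sinus venosus and proepicardium markers 2 of 6. Paraxial mesoderm markers, the tissue in which *Aldh1a2* is usually strongest, had 0 of 7 called and 6 of 7 negative (median -0.70), with 126 to 209 CPM on the left and 82.1 to 143 on the right. The other 6 marker lists had no gene called in this comparison.

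Over the 21 embryos the ratio of *Crabp2* followed that of the summed neural tube markers, with r = 0.92 and rho = 0.83 (permutation p 1e-05 each, adjusted over 198 relations with marker lists 4.95e-04 and 6.6e-04). The r was 0.84 without the 2 farthest embryos, 0.88 without 10_1 and 2_2 and 0.89 in rightward mutants alone. Its relation with posterior second heart field markers was inverse, with r = -0.90 and rho = -0.84 (permutation p 1e-05 each, adjusted 4.95e-04 and 6.6e-04), and r was -0.90 without the 2 farthest embryos and -0.73 in rightward mutants. *Crabp1* also went against posterior second heart field markers, with r = -0.87 (permutation p 1e-05, adjusted 4.95e-04) and rho = -0.79 (permutation p 6e-05, adjusted 0.00132), and r was -0.76 and -0.64 in those subsets. *Crabp1* followed the heart tube muscle markers inversely, with r = -0.80 (permutation p 2e-05, adjusted 4.95e-04) and rho = -0.82 (permutation p 3e-05, adjusted 9.9e-04), and r was -0.72 without the 2 farthest embryos and -0.72 in rightward mutants. Both genes also ran with further lists, *Crabp1* with neural tube markers at r = 0.77 (rho = 0.70, permutation p 6e-05 and 4.9e-04, adjusted 0.00119 and 0.00808), so that several tissues moved together with each gene. The part of these tissues in the side differences of *Crabp2* and *Crabp1* was not tested.

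The ratio of *Aldh1a2* followed paraxial mesoderm markers, with r = 0.73 (permutation p 1.7e-04, adjusted 0.0028) and rho = 0.79 (permutation p 5e-05, adjusted 0.00124), and r was 0.74 without the 2 farthest embryos and 0.55 in rightward mutants. That of *Cyp26c1* followed neural crest markers other than *Crabp1*, with r = 0.74 (permutation p 1e-04, adjusted 0.0018) and rho = 0.72 (permutation p 2.7e-04, adjusted 0.00486), and r was 0.65 and 0.73 in the same 2 subsets. In level, *Dhrs3* went against anterior second heart field markers, with r = -0.79 (permutation p 6e-05, adjusted 0.00119) and rho = -0.67 (permutation p 0.00129, adjusted 0.0172), and r was -0.57 and -0.74. The part of these tissues was not tested here either.

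**Figure D5:**
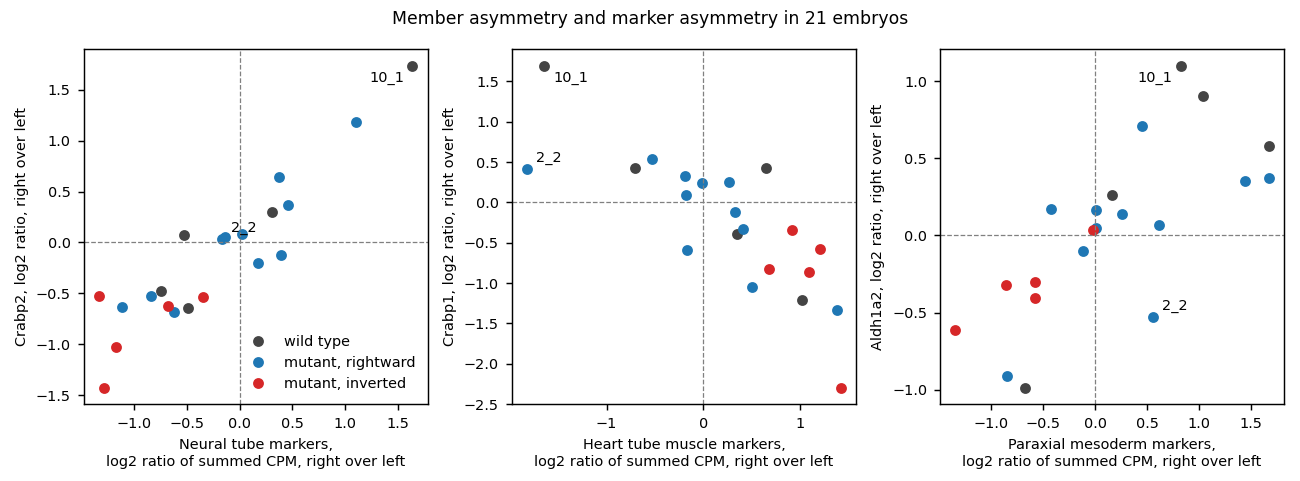
Log2 ratio right over left of *Crabp2*, *Crabp1* and *Aldh1a2* against that of the summed CPM of neural tube, heart tube muscle and paraxial mesoderm markers, 1 point per embryo, coloured by group, with 10_1 and 2_2 named. *Crabp2* rises with neural tube markers (r = 0.92), *Crabp1* falls with heart tube muscle markers (r = -0.80) and *Aldh1a2* rises with paraxial mesoderm markers (r = 0.73).

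Beyond the 9 members, 27 further genes of retinoid metabolism and transport, 11 receptors and cofactors and 14 genes known to respond to retinoic acid in embryos were read. The other retinaldehyde dehydrogenases were hardly present: *Aldh1a1* had 0.253 CPM and *Aldh1a3* 1.22 CPM, against 74.1 CPM for *Aldh1a2* (means of 42 libraries). *Stra6*, the retinol import channel, had 78.2 CPM, and *Rbp4*, the carrier of retinol in serum, 185, with a range of 5.11 to 439. The summed visceral endoderm markers ranged widely too, from 8.26 to 988 CPM, and the part of that tissue in the level of *Rbp4* was not tested. Of the receptors *Rara* had 83.8 CPM, *Rarg* 34.8, *Rxra* 14.9, *Rxrb* 23.7 and *Rxrg* 3.75, and of the responders *Hoxb1* had 91.4.

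Of these lists 1 gene was called in any comparison. *Tbx5*, a transcription factor gene of the posterior heart field, was higher on the right in inverted mutants by 0.74 on the log2 scale (SE 0.09, adjusted p 0.00702 by edgeR's quasi-likelihood test). In that comparison 0 of 21 tested metabolism genes were called (5 at an unadjusted p under 0.05, median 0.02), 0 of 11 receptors and cofactors (2, median -0.04) and 1 of 14 responders (4, median -0.15). Over all genes tested there, 2.04% were called and 15.1% had an unadjusted p under 0.05. Wild types and rightward mutants had no call in any of the 3 lists, with medians between 0.01 and 0.06 on the log2 scale. *Stra6*, named after its values were seen, had a log2 fold change of 0.37 (SE 0.13) in wild types and -0.36 (SE 0.09) in inverted mutants, with adjusted p of 1.0 and 0.0799, and the change between them was -0.75 (SE 0.19, adjusted p 0.0734).

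Among 11215 genes with a mean of at least 5 CPM, the log2 ratios of 3 genes were sought that followed each member most closely over the 21 embryos, by Pearson's r and as a description. For *Aldh1a2* they were *Stra6* (0.86), *Lrrc49* (0.86) and *Ppdpf* (0.83), and for *Rdh10* *Sntb2* (0.94), *Zfp36l2* (0.92) and *Nr2f6* (0.92). For *Crabp2* they were *Fgf15* (0.95), *Lhpp* (0.94) and *Mapk11* (0.94), and for *Crabp1* *Ptn* (0.93), *Minar2* (0.92) and *Boc* (0.92). *Cyp26c1* was followed by *Inka1* (0.84), *Rgcc* (0.84) and *Ebf1* (0.83), *Cyp26a1* by *Herpud1* (0.82), *Ino80c* (0.80) and *Wdr1* (0.80), and *Dhrs3* by BC004004 (0.79), *G6pc3* (0.77) and *Gpx3* (0.75). *Rarb* was followed by *Chml* (0.75) and *Ttc3* (0.74), and the closest to *Cyp26b1* were *Lratd1* (0.70), *Pde11a* (0.67) and *Tenm4* (0.67).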

How the data were processed

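RNA of 42 heart field sides from 21 embryos was measured, and the pairs of sides come from the embryo named in the labels. The deposited file holds raw counts per gene, which the authors made with STAR on GRCm39 and featureCounts (Subread 2.0.6 per the processing notes) from poly-A RNA amplified by PCR. The strand setting is not given in the sources used here. The study's methods state that duplicates were taken out before mapping, and no molecular identifiers are mentioned, so counts stand for distinct reads and not for molecules.

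Of 56953 genes, 56310 matched GENCODE vM39 by Ensembl ID, 643 did not, and 12119 were at 0 throughout. CPM used TMM sizes over all libraries, and log2 CPM a prior count of 2. edgeR 4.0.16 (R 4.3.3) quasi-likelihood tests with Benjamini-Hochberg adjustment over all genes tested used filterByExpr (min.count 5, min.prop 0.2, large.n 50 and min.total.count 10) and an adjusted p of 0.05. Side was tested within groups with embryo as a block, the change of asymmetry in 1 fit of all libraries, and levels per side with sex. Over 2000 genes both sides of an embryo tended to deviate together: the residual correlation had a median of 0.45, a lowest value of -0.10, and was over 0.1 in 19 of 21 embryos. For single members, left and right correlated over the 21 embryos from -0.35 (*Rdh10*) to 0.68 (*Cyp26c1*), with -0.08 for *Crabp2* and -0.03 for *Rarb*. The tests were tried on simulated counts: at a simulated log2 change of 1.5, 100%, 97.5% and 98% of 200 changed genes were recovered for side in inverted mutants (22480 genes), its change against rightward mutants (25838) and the left level (24415), with 15, 8 and 9 false calls. The changed genes were drawn from well-counted ones, and differences between embryos were not simulated. No member had a log2 fold change of that size as reported, and recovery of smaller changes was not tested.

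All 9 members were tested in every comparison, though not every value is printed. Other genes were named by rule: up to 3 called genes of each pathway list by size and the 3 genes most like each member. A few genes that these rules would name are not reported here. Members and lists were chosen with earlier results of these data known. Alternatives were DESeq2 1.42.0, other scaling, filters, dispersions and covariates, no block, males alone and each embryo left out. Those without 10_1, 2_2 or the 2 farthest embryos, and within rightward mutants, were added after the data were seen. Rightward mutants are 1 group here, since the labels divide them no further. Embryos of a group are separate animals.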

Additional observations from a re-analysis of the deposited data

Results flagged for a closer look

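In 7 of 54 groups of 5 embryos, 1 embryo lay far from the other 4, its gap exceeding Dixon's 95% critical value of 0.71 of the range. Chance sets about 1 in 20 groups apart in this way. *Cyp26b1* in the right side of inverted mutant 10_3 was at 33.9 CPM, with the others between 9.75 and 12.6 CPM. *Cyp26b1* in the right side of wild type 17_7 was at 24.5 CPM, with the others between 9.03 and 11.8 CPM. *Crabp1* was high in the same right side of inverted mutant 10_3, at 474 CPM against 90.4 to 166 CPM.

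The widest side difference of *Crabp1* among inverted mutants was a log2 ratio of -2.30 in 32_2, with the others between -0.86 and -0.34. *Crabp2* in the right side of wild type 10_1 was at 737 CPM, with the others between 146 and 305 CPM. In wild type 22_4 the left side had 91.4 CPM of *Cyp26c1*, against 6.24 to 17.9 CPM in the others, and 31.3 CPM of *Rarb*, with the others at 44.7 CPM or more.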

How the results depend on the processing

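The number of members called in inverted mutants for side, 1 as reported, was 3 with DESeq2 and 3 without a filter on low counts, in both cases *Aldh1a2*, *Crabp1* and *Crabp2*. Over all genes these settings called 1755 of 22960 and 942 of 39695, against 468 of 22960 as reported. It was 0 when all 42 libraries were fitted together and 0 when only males were used. With no replicate block, which ignores the pairing of both sides of an embryo, it was 0 as well, and 0, 1, 305, 17, 7 and 0 genes in all were called in the 6 comparisons of side, against 0, 6, 468, 82, 135 and 0 with it. With 1 embryo left out it ran from 0 to 2 in inverted mutants, and from 0 to 1 for the change of asymmetry between inverted mutants and wild types (1 without 17_7). No other comparison gained or lost a member.

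Counts over all genes moved more. For side in inverted mutants they ran from 53 (males alone) to 1755 (DESeq2), and from 138 (without 32_2) to 446 with 1 embryo left out. In rightward mutants they ran from 1 to 32 and 2 to 8, and in wild types from 0 to 20 and 0 to 0. For the change of asymmetry they ran from 7 to 456 and 18 to 158 against rightward mutants, from 3 to 911 and 17 (without 32_2) to 641 (without 22_4) for inverted mutants against wild types, and from 0 to 2 otherwise. Levels on the left ran from 2 to 104, 3 to 78 and 3 to 20, and on the right from 0 to 18, 0 to 17 and 2 to 8, for inverted against rightward mutants, inverted mutants against wild types and rightward mutants against wild types. With 1 embryo left out they ran, in that order, from 2 to 6 (without 2_2), 2 (without 32_2) to 9 and 1 (without 7_1) to 11 (without 17_7) on the left, and from 0 (without 10_3) to 4 (without 1_6), 0 to 0 and 0 (without 18_1) to 12 (without 17_7) on the right. Among all member values, called or not, 20 of 729 changed sign under another setting and 106 of 1323 with 1 embryo left out, none of them larger than 0.47 on the log2 scale as reported. Under the alternative the largest of these reached 0.34 and 0.96, the latter for the left level of *Cyp26c1* in inverted mutants against wild types (-0.08 as reported, 0.96 without 22_4). No member had fewer than 83 counts in a library, and how far counting error adds to the spread between embryos was not tested.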
